A study of Mus musculus with 4 samples.

Results

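Collagens are the main structural proteins of the extracellular matrix, built from alpha chains that wind into a triple helix, and each chain is the product of its own Col gene. The fibrillar collagens form the banded fibrils that bear load in the lung wall. The network collagens form sheets such as the basement membrane, and beaded filament collagen VI forms microfibrils beside it. FACITs (fibril-associated collagens with interrupted triple helices) coat fibrils, transmembrane collagens sit in the plasma membrane, and multiplexins sit in basement membrane zones. In the developing lung, fibroblasts that carry Pdgfra, a PDGF receptor subunit, lay down much of this matrix while alveoli form.

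The genes described here are all collagen chains, chosen by name alone: every row of the deposited expression table whose gene name is Col, a number, the letter a and a number. This gave 44 chains among 23444 gene symbols, each present as 1 row: 11 fibrillar, 9 network, 6 beaded filament, 9 FACIT and 4 transmembrane chains, 2 multiplexins, and 3 chains outside these types (Col7a1, Col26a1 and Col28a1). The samples are Pdgfra+ fibroblasts from lungs of wild-type (WT) C57BL6 mice at embryonic days 16.5 and 18.5 (E16.5, E18.5) and postnatal days 7 and 28 (P7, P28), with 1 RNA-seq library per age. How the cells were sorted and how many animals went into a library are not given in the sources used here. Pdgfra was at 88.7 FPKM at E16.5, then 95.9 at E18.5, 113 at P7, and 188 by P28, so the gene used as the label was present in every library.

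Values are FPKM, fragments scaled to transcript length and library total, which allows levels of different chains to be compared within a library. The table holds no read totals, so the depth behind a value is unknown. With 1 library per age no error can be given and no test was run, and each difference given compares single libraries. The E18.5 library lay lower in scale than the others: the median log2 difference of the 12561 symbols that reached 1 FPKM in any library was -0.71 for E18.5 against E16.5 and 0.92 for P7 against E18.5. It was -0.03 for P28 against E16.5. Levels are therefore given as deposited and, for the more abundant chains whose age of highest value depends on the scale, after median-ratio scaling. This scaling divides the libraries by 1.15, 0.581, 1.38 and 1.08 in order of age. Levels of related genes and sums of markers are given as deposited only, and their age order can change with the scale. A chain is counted as higher or lower where log2(FPKM + 1) differed by at least 1 (2-fold) and the higher library reached 5 FPKM. Because 1 is added to each value, such log2 differences understate those of chains with low levels. RNA from a sorted population does not tell fewer cells of a type from less RNA per cell.

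Of the 44 chains, 15 reached 10 FPKM in at least 1 library, 16 peaked between 1 and 10 FPKM, and 13 stayed below 1 FPKM at every age as deposited. The summed FPKM of all chains was 1410 at E16.5, then 972 at E18.5, 2507 at P7, and 2991 by P28, which is 0.783%, 0.969%, 1.29% and 1.36% of all FPKM in those libraries. The share of RNA that encoded collagen chains was thus higher at each successive age.

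**Figure D1:**
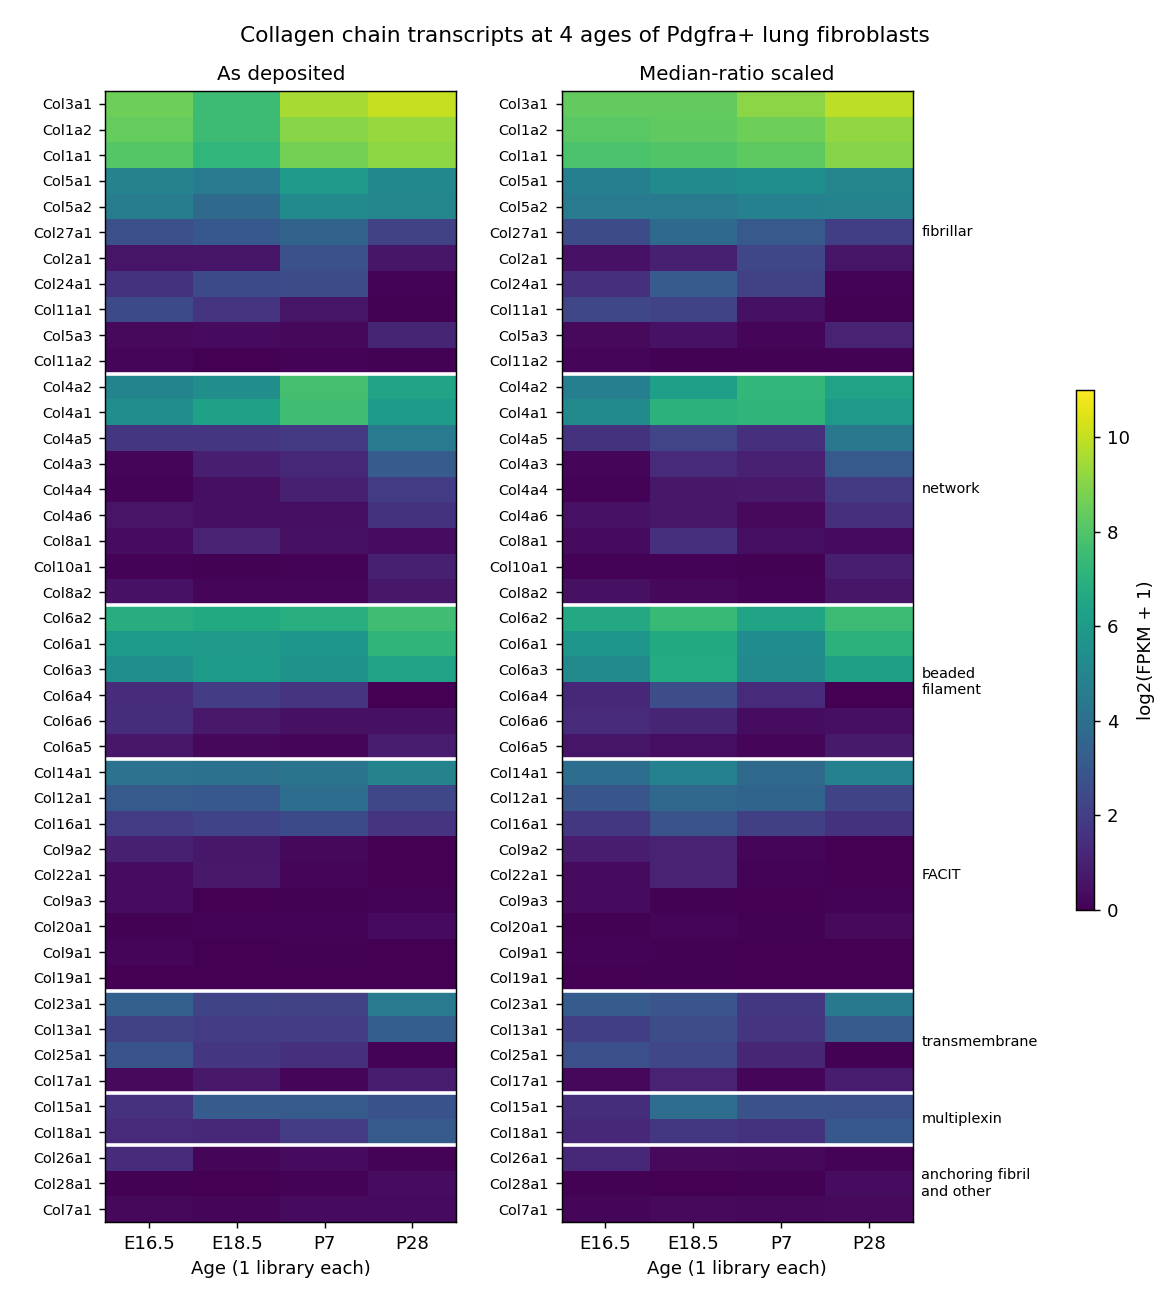
Levels of the 44 collagen chains as log2(FPKM + 1), in rows grouped by structural type and in columns by age with 1 library each, as deposited on the left and after median-ratio scaling on the right. Col3a1, Col1a2 and Col1a1 are the most abundant at every age, Col4a1 and Col4a2 peak at P7, and Col4a3 to Col4a6 peak at P28.

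P28 against E16.5 is the comparison in which the scale of the libraries matters least, and 11 chains were counted as higher or lower in it both as deposited and after scaling. A further 6 that stayed under 5 FPKM also differed by at least 1 under either scale and are not counted, Col4a4 and Col4a6 with higher values at P28 and Col11a1, Col24a1, Col26a1 and Col6a4 with lower ones. The 10 chains Col3a1, Col1a1, Col4a2, Col4a5, Col4a3, Col6a1, Col23a1, Col13a1, Col15a1 and Col18a1 were higher at P28, and Col25a1 was lower. RefSeq gives a start-site window on GRCm38.p6 for 9 of the 11, and for 5 the 250 bases upstream of that start hold no annotated exon. These 5 are shown because they lie upstream of chains counted as different between the ends of the course under either scale: Col3a1 at chr1:45311288-45311537 (plus strand), Col23a1 at chr11:51289670-51289919 (plus), Col13a1 at chr10:61979109-61979358 (minus), Col15a1 at chr4:47207762-47208011 (plus) and Col25a1 at chr3:130180595-130180844 (plus). The Col25a1 window lies inside the span that GENCODE gives the gene. All are written 5′ to 3′ on the strand of the gene, and capitals mark the GC box, GGGCGG on either strand.
Col3a1: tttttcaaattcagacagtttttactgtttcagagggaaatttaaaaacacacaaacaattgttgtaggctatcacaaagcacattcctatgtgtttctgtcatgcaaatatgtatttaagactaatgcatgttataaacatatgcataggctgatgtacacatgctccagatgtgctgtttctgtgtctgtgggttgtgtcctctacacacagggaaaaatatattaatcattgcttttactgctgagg
Col23a1: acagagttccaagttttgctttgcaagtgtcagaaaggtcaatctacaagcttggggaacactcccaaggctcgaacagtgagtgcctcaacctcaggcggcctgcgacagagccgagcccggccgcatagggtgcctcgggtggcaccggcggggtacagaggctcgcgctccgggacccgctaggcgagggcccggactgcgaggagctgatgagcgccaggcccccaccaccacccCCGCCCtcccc
Col13a1: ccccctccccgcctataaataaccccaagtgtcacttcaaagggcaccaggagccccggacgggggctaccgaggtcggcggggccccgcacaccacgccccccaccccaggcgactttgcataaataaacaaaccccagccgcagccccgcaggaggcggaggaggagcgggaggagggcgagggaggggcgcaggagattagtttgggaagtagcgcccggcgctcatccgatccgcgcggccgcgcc
Col15a1: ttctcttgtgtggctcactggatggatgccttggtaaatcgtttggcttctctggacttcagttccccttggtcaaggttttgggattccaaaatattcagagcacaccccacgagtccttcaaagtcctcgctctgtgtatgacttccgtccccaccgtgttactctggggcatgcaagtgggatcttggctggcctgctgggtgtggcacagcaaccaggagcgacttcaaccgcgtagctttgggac
Col25a1: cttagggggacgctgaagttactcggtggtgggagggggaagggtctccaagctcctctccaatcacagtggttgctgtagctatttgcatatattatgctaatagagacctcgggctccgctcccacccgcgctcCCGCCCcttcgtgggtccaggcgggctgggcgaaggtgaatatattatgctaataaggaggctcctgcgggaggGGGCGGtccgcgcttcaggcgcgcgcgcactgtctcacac

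The 5 windows have little in common in these letters. The Col3a1 window is 35.2% G and C, against 68.8% for Col13a1, 66% for Col23a1, 60.4% for Col25a1 and 53.6% for Col15a1. Col25a1, the chain that was lower at P28, holds 2 GC boxes and Col23a1 holds 1, while Col3a1, Col13a1 and Col15a1 hold none. A TATA box (TATAAA on either strand) was found upstream of Col3a1 and Col13a1, and a CCAAT box (CCAAT on either strand) upstream of Col25a1. Across all 38 windows of the 35 chains that RefSeq lists, a GC box was found in 57.9%, against 32.7% of 32851 windows of all genes. For the CCAAT box these shares were 34.2% and 33.8%, and for the TATA box 13.2% and 12.4%. A match of letters is a description of the window and not evidence that a factor binds there.

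The fibrillar chains of types I and III held most of the collagen FPKM in every library and were highest at P28. Col3a1 (GRCm38 chromosome 1, 45311538 to 45349706, plus strand), whose product forms homotrimers in distensible tissue, was at 381 FPKM at E16.5, then 187 at E18.5, 748 at P7, and 1034 by P28. Col1a2 (chromosome 6, 4504814 to 4541544, plus strand) was at 337, 185, 522 and 637 FPKM in the same order. Col1a1 (chromosome 11, 94936224 to 94953042, plus strand), which supplies the other chain of type I collagen, was at 272, 151, 418 and 555 FPKM. All of these chains had their lowest deposited value at E18.5 and their highest at P28. After scaling, Col1a1 stood at 237, 261, 303 and 515 and Col1a2 at 294, 319, 379 and 590.3, higher at each age than at the one before. Scaled Col3a1 was 332, 322, 543 and 958, so its values at E16.5 and E18.5 lay close together. The log2 difference of P28 against E16.5 was 1.44 for Col3a1 (1.53 scaled), 1.02 for Col1a1 (1.11 scaled) and 0.91 for Col1a2 (1.003 scaled). Both type I chains lie near the 2-fold threshold, and with upper-quartile scaling Col1a1 was at 0.99998 and was not counted.

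Type V collagen, which sets the diameter of type I fibrils, had smaller differences between P28 and E16.5 than the type I chains. Col5a1 (chromosome 2, 27886425 to 28039514, plus strand) was at 29.3 FPKM at E16.5, then 21.7 at E18.5, 59.7 at P7, and 34.1 by P28. Col5a2 (chromosome 1, 45374321 to 45503282, minus strand) was at 24.3, 12.9, 37.4 and 31.9 FPKM. As deposited, both were highest at P7, while after scaling Col5a1 was still highest at P7 (43.3) and Col5a2 at P28 (29.5). Neither was 2-fold apart between P28 and E16.5, with log2 differences of 0.21 and 0.38 (0.30 and 0.46 scaled). Col5a3, the rarer chain of the type, was below 1 FPKM until P7 and at 1.17 FPKM at P28.

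The minor fibrillar chains were a different picture, and several were near 0 at P28. Col11a1, whose product nucleates fibrils and is best known in cartilage, was lower at each successive age, at 4.61, 2.17, 0.553 and 0.0579 FPKM. It stayed below the 5 FPKM needed for a count in either direction, and its log2 difference of P28 against E16.5 was -2.41. Col24a1 was at 2.06, 4.61, 4.79 and 0.0728 FPKM, and Col27a1 at 5.46, 7.24, 10.3 and 3.40 FPKM. Both had their lowest value at P28, and both were highest at P7 as deposited and at E18.5 after scaling. Col27a1 was lower at P28 than at P7 by either scale (log2 difference -1.35, or -1.02 scaled).

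Col2a1, the main fibrillar chain of cartilage, stood out at P7, with 0.539 FPKM at E16.5, then 0.555 at E18.5, 5.62 at P7, and 0.605 by P28. Of its partner chains in cartilage fibrils, Col11a1 was at 0.553 FPKM and Col11a2 at 0.0704 FPKM and Col9a1, Col9a2 and Col9a3 at 0.0309, 0.176 and 0.0416 FPKM at P7. The 9 chondrocyte markers measured summed to 1.98 FPKM at E16.5, then 2.10 at E18.5, 3.27 at P7, and 0.967 by P28. Of these, 1 of 9 reached 1 FPKM at P7, the link protein gene Hapln1 at 2.11 FPKM. As deposited the sum was highest at P7, as Col2a1 was, and Hapln1 made up 2.11 of its 3.27 FPKM. The median log2 difference of the 9 markers for P7 against E18.5 was -0.05 (-0.11 scaled). Aggrecan (Acan) was at 0.0291 FPKM and Cytl1 at 0.626 FPKM at P7, and Matn1 was listed at 0. The part of cartilage RNA in the Col2a1 value was not tested. After scaling Col2a1 was at 4.08 at P7, under 5 FPKM.

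The network chains of the basement membrane fell into a P7 group and a P28 group. Col4a1 and Col4a2 encode the chains of the most widespread type IV trimer, while Col4a3, Col4a4 and Col4a5 form the trimer of the mature glomerular and alveolar basement membranes and Col4a6 pairs with Col4a5. Col4a1 (chromosome 8, 11198423 to 11312826, minus strand) stood at 42.7 FPKM at E16.5, then 76.5 at E18.5, 199 at P7, and 66.1 by P28. Col4a2 (chromosome 8, 11312805 to 11449287, plus strand) was at 29.8, 42.1, 216 and 85.0 FPKM. Both were highest at P7 and lowest at E16.5 under either scale, with log2 differences of P7 against E16.5 of 2.19 and 2.81 (1.93 and 2.54 scaled). After scaling, Col4a1 at E18.5 (132) was close to its level at P7 (144), whereas Col4a2 was at 72.5 at E18.5 and 157 at P7. The transcribed units of the pair overlap head to head by 22 bases, and without strand in the counting, reads in that overlap cannot be assigned to either gene.

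Markers of endothelial cells, which also make Col4a1 and Col4a2, moved with these chains at P7. All 10 endothelial markers reached 1 FPKM at P7, and their sum was 25.7 FPKM at E16.5, then 30.3 at E18.5, 795 at P7, and 196 by P28. None of them was listed at 0 in any library. Other marker sums were also highest at P7 as deposited: smooth muscle and myofibroblast (511 FPKM), pericyte (32.7), Schwann cell (6.46) and chondrocyte (3.27). For E18.5 against E16.5, where scaled Col4a1 and Col4a2 differed by 1.80 and 1.44 on the log2 scale (0.83 and 0.48 as deposited), the median log2 difference of the 10 endothelial markers was 1.014 after scaling (0.31 as deposited). The part of endothelial RNA, or of RNA from these other cell types, in the Col4a1 and Col4a2 values was not tested at either age.

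Col4a3, Col4a4, Col4a5 and Col4a6 all had their highest value at P28. Col4a5 (chromosome X, 141475385 to 141689234, plus strand) was at 2.37, 2.31, 2.63 and 21.4 FPKM in order of age. Col4a3 (chromosome 1, 82586921 to 82722059, plus strand) was higher at each successive age as deposited, at 0.143, 0.873, 1.41 and 8.18 FPKM, although after scaling its E18.5 value (1.504) lay above that at P7 (1.02). Col4a4 was at 0.0768, 0.375, 0.932 and 2.83 FPKM and Col4a6 at 0.505, 0.366, 0.314 and 2.04 FPKM. The log2 difference of P28 against P7 was 2.63 for Col4a5 (2.84 scaled) and 1.93 for Col4a3 (2.09 scaled). Col4a4 and Col4a6 did not reach 5 FPKM and were not counted.

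Markers of epithelial cells, which are known to make these chains in the alveolus, moved with them at P28. The 13 epithelial markers summed to 36.3 FPKM at E16.5, then 142 at E18.5, 57.7 at P7, and 30288 by P28, of which Scgb1a1 and Sftpc made up 19258 and 10149 FPKM. At P28, 11 of 13 reached 1 FPKM, and Krt5 was listed at 0 there as at E16.5 and P7. The 6 mesothelial markers summed to 2.21, 11.8, 52.0 and 163 FPKM, also highest at P28, with no marker listed at 0. Whether epithelial or mesothelial RNA contributed to the Col4a3 to Col4a6 values was not tested. The short-chain network collagens were rare: Col8a1 was highest at E18.5 (1.10 FPKM), and Col8a2 and Col10a1 stayed below 1 FPKM.

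**Figure D2:**
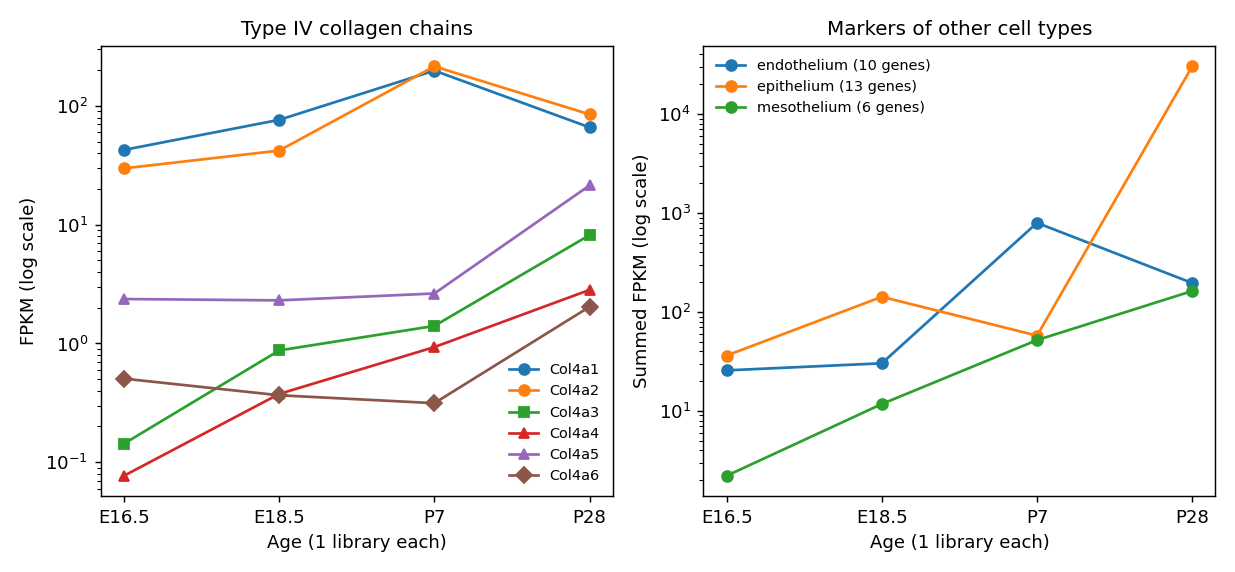
FPKM of the 6 type IV collagen chains (left) and summed FPKM of endothelial, epithelial and mesothelial markers (right) by age, with 1 library each and log axes. Col4a1 and Col4a2 peak at P7 (199 and 216 FPKM) as does the endothelial sum (795 FPKM), and Col4a3 to Col4a6 peak at P28 as does the epithelial sum (30288 FPKM).

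The type IV genes lie head to head in pairs on chromosomes 1, 8 and X, and the members of a pair had their highest value at the same age. Col4a4 and Col4a3 have 71 bases between them and Col4a6 and Col4a5 have 1308, and like Col4a1 and Col4a2 each pair peaked at 1 age by either scale. The tandem genes Col6a2, Col6a1 and Col18a1 on chromosome 10 also shared their age, P28, by either scale, while other neighbouring chains did not. With upper-quartile scaling, however, Col6a2 was highest at E18.5. Col3a1 and Col5a2 lie tail to tail on chromosome 1 with 24614 bases between them and peaked at P28 and P7 as deposited, though both at P28 after scaling. The tandem genes Col6a6, Col6a5 and Col6a4 on chromosome 9 peaked at E16.5, P28 and E18.5 by either scale. A shared peak at P28 is not specific to neighbours, because P28 held the highest deposited value of 21 of the 44 chains. With median-ratio scaling it held that of 20. For P7, the age of Col4a1 and Col4a2, these numbers were 10 and 4. Whether the arrangement of the genes bears on their age of highest value was not tested. In all, 18 of the 44 chains overlap an annotated gene on the opposite strand, so their reads may include those of that gene.

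Collagen VI, the beaded filament type, is assembled from the products of Col6a1, Col6a2 and a longer chain that is usually that of Col6a3. Col6a2 (chromosome 10, 76595762 to 76623630, minus strand) stood at 114 FPKM at E16.5, then 102 at E18.5, 117 at P7, and 198 by P28. Col6a1 (chromosome 10, 76708792 to 76726168, minus strand) was at 62.0, 58.3, 54.2 and 145 FPKM, and Col6a3 (chromosome 1, 90765923 to 90843971, minus strand) at 43.3, 63.0, 49.4 and 80.2 FPKM. As deposited, P28 was highest for all of these chains, and for Col6a3 E18.5 lay between P28 and the other ages. After scaling the E18.5 library joined P28: Col6a1 stood at 54.1, 100.4, 39.3 and 135, Col6a2 at 99.2, 175, 84.7 and 183, and Col6a3 at 37.7, 108, 35.9 and 74.3. P7 was the lowest of the scaled values for each of them, and the scaled peak of Col6a3 was at E18.5 rather than P28. The log2 difference of P28 against P7 was 1.41 for Col6a1 (1.75 scaled), 0.76 for Col6a2 (1.10 scaled) and 0.69 for Col6a3 (1.03 scaled).

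The alternative long chains of collagen VI were rare and did not move together. Col6a4 was at 1.61, 2.95 and 2.11 FPKM at E16.5, E18.5 and P7 and was listed at 0 at P28. Because a listed 0 may stand for a missing estimate, no fold is given. Col6a6 was highest at E16.5 (1.75 FPKM) and at 0.693, 0.397 and 0.414 FPKM at the later ages. Col6a5 stayed between 0.147 and 0.819 FPKM.

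Among the FACITs, Col14a1 and Col12a1, which bind the surface of type I fibrils, had opposite positions at P28. Col14a1 (chromosome 15, 55307750 to 55520803, plus strand) was at 17.1 FPKM at E16.5, then 16.2 at E18.5, 17.7 at P7, and 29.6 by P28, its highest value. Col12a1 (chromosome 9, 79598991 to 79718831, minus strand) was at 7.71, 7.15, 14.7 and 4.04 FPKM, with its lowest value at P28. The log2 difference of P28 against P7 was 0.71 for Col14a1 (1.04 scaled) and -1.64 for Col12a1 (-1.30 scaled). Col16a1 was at 2.76, 3.59, 4.52 and 2.23 FPKM. After scaling all of these FACITs had their highest value at E18.5, at 27.8 for Col14a1 (27.5 at P28), 12.3 for Col12a1 and 6.19 for Col16a1, so the P7 peak of Col12a1 and Col16a1 and the P28 peak of Col14a1 held only as deposited.

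The other 6 FACIT chains, Col9a1, Col9a2, Col9a3, Col19a1, Col20a1 and Col22a1, stayed below 1 FPKM at every age as deposited. Col9a2 was the most abundant of them at E16.5 (0.929 FPKM) and was listed at 0 at P28, as were Col9a1, Col19a1 and Col22a1. Col19a1, at 0.0237 FPKM at E18.5, was listed at 0 in the other 3 libraries.

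The transmembrane chains differed in direction among themselves. Col23a1 (chromosome 11, 51289920 to 51583918, plus strand), a single-pass collagen that can be shed from the cell surface, was at 9.44 FPKM at E16.5, then 3.74 at E18.5, 3.33 at P7, and 22.5 by P28. Col13a1 (chromosome 10, 61838236 to 61979108, minus strand), whose product sits at adhesion sites and which marks a class of lung fibroblasts, was at 3.51, 2.89, 3.02 and 8.69 FPKM. Both were lowest at P7 after scaling and highest at P28 under either scale, with log2 differences of P28 against P7 of 2.44 and 1.27 (2.67 and 1.503 scaled). Col25a1 (chromosome 3, 130131501 to 130599877, plus strand), first described as a component of amyloid plaques, ran the other way at 6.18, 2.34, 1.79 and 0.0660 FPKM. It was lower at each successive age under either scale and differed by -2.75 between P28 and E16.5 (-2.59 scaled). Col17a1, the hemidesmosome collagen of epithelia, stayed below 1 FPKM as deposited, highest at P28 (0.863 FPKM), while after scaling it was highest at E18.5 (1.16).

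The multiplexins, whose C-terminal fragments are known as restin and endostatin, were both higher at P28 than at E16.5. Col15a1 (chromosome 4, 47208161 to 47313167, plus strand) was at 1.96 FPKM at E16.5, then 8.24 at E18.5, 7.65 at P7, and 5.77 by P28. It was the 1 chain counted as higher at E18.5 than at E16.5 as deposited, with a log2 difference of 1.64 (2.49 scaled). Col4a3 and Col4a4, under 5 FPKM at both ages, had larger ratios of E18.5 to E16.5 (6.10 and 4.89, against 4.21). Col18a1 (chromosome 10, 77052178 to 77166548, minus strand) was at 1.55, 1.42, 2.81 and 7.60 FPKM, highest at P28, with a log2 difference of P28 against P7 of 1.18 (1.41 scaled). Of the chains outside the types, Col26a1 stood at 1.63 FPKM at E16.5 and at most 0.244 at the later ages, and Col7a1, the anchoring fibril chain, and Col28a1 were at most 0.294 FPKM.

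The makeup of the collagen transcripts within a library does not depend on the scale between libraries. Fibrillar chains held 74.9% of summed collagen FPKM at E16.5, then 59.0% at E18.5, 72.1% at P7, and 76.8% by P28. Col1a1, Col1a2 and Col3a1 alone held 70.2%, 53.9%, 67.3% and 74.4%. The E18.5 library thus had the smallest fibrillar share, and beaded filament chains had their largest share there, at 15.8%, 23.4%, 8.89% and 14.2% in order of age. Both extremes depend on Col1a1, Col1a2 and Col3a1. Without these 3 chains the smallest fibrillar share (9.32%) and the largest beaded filament share (55.4%) were at P28. Network chains held 5.42%, 12.7%, 16.8% and 6.27%, with the largest share at P7. FACITs held 2.07%, 2.92%, 1.49% and 1.21%, transmembrane chains 1.37%, 0.993%, 0.331% and 1.07%, and multiplexins 0.249%, 0.994%, 0.417% and 0.447%. The other chains held at most 0.130%.

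**Figure D3:**
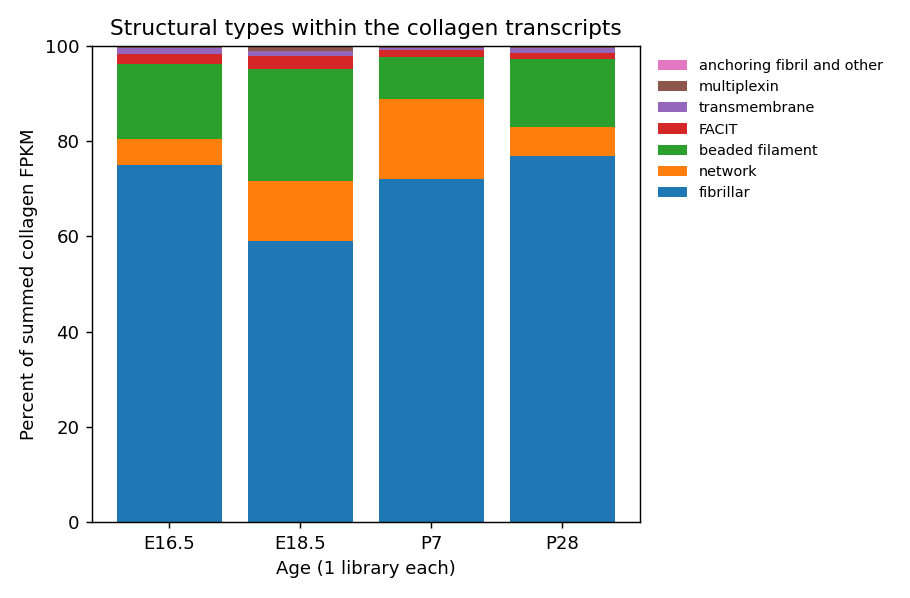
Percent of summed collagen FPKM held by each structural type at each age, as stacked bars with 1 library each. The fibrillar share is smallest at E18.5 (59.0%), the network share largest at P7 (16.8%) and the beaded filament share largest at E18.5 (23.4%).

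Ratios between chains of the same or partner collagens, taken within a library, separated pairs that kept their proportion from pairs that did not. The ratio of Col1a1 to Col1a2 was 0.807 at E16.5, then 0.817 at E18.5, 0.800 at P7, and 0.872 by P28, the narrowest range of the 6 pairs measured at every age. Col3a1 relative to Col1a1, a chain of a different collagen, was 1.40, 1.24, 1.79 and 1.86, higher after birth. Col4a1 relative to Col4a2 was 1.43, 1.82, 0.921 and 0.778, so Col4a1 was the more abundant chain in both fetal libraries and Col4a2 in both postnatal libraries. Col5a1 relative to Col5a2 was 1.20, 1.68, 1.60 and 1.07. In collagen VI, Col6a1 relative to Col6a2 was 0.545, 0.572, 0.464 and 0.735, and Col6a3 relative to Col6a1 was 0.698, 1.08, 0.912 and 0.552, highest at E18.5. The rarer type IV pairs could be set against each other at P28 only, where Col4a3 was 2.89 times Col4a4 and Col4a5 was 10.53 times Col4a6.

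**Figure D4:**
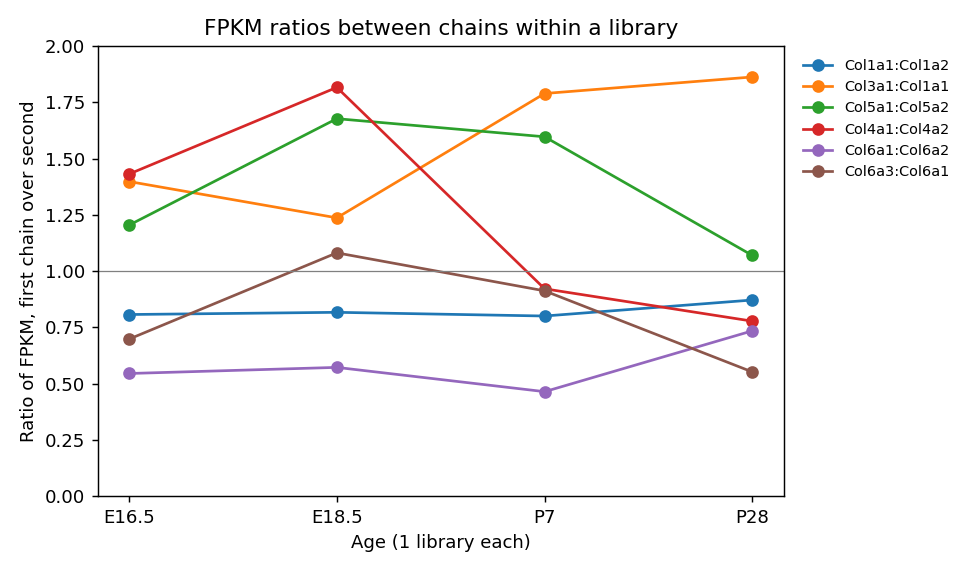
Ratio of FPKM between 2 chains of the same or partner collagens within each library, by age, with 1 library each and a line at a ratio of 1. The ratio of Col1a1 to Col1a2 stays between 0.800 and 0.872, while that of Col4a1 to Col4a2 is 1.82 at E18.5 and 0.778 at P28.

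Counted over all 44 chains, P28 against E16.5 had 10 higher chains and 1 lower chain in the deposited values. Over the 12561 symbols that reached 1 FPKM in any library, 31 of them chains, 10.1% were higher and 9.51% lower. On that base the counted chains were 32.3% and 3.23% of the 31 (35.5% and 3.23% scaled). In the other comparisons too, every counted chain is among these 31. After scaling there were 11 higher chains, Col1a2 being added, and 1 lower, against 10.4% and 7.94% of symbols. The median log2 difference of the 31 chains was 0.79 (0.84 scaled), against -0.03 (0.03 scaled) for the symbols. The chains higher at P28 as deposited were 2 fibrillar, 3 network, 1 beaded filament, 2 transmembrane and both multiplexin chains, and no FACIT was among them.

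Comparisons that involve E18.5 changed with the scale. E18.5 against E16.5 had 1 chain higher and 3 lower (Col3a1, Col23a1 and Col25a1) as deposited, against 1.11% and 22.6% of symbols, and after scaling 8 higher and 0 lower, against 4.49% and 5.84%. The 8 were Col27a1, Col24a1, Col4a2, Col4a1, Col6a3, Col6a4, Col16a1 and Col15a1. P7 against E18.5 had 8 chains higher and 0 lower as deposited, against 33.3% and 1.52% of symbols. The 8 were Col3a1, Col1a2, Col1a1, Col5a1, Col5a2, Col2a1, Col4a2 and Col4a1. After scaling 1 chain was higher, Col4a2, and 7 were lower (Col6a2, Col6a1, Col6a3, Col6a4, Col14a1, Col23a1 and Col15a1), against 7.20% and 5.88% of symbols. The median of the 31 chains was -0.08 for E18.5 against E16.5 (0.63 scaled), against -0.71 for the symbols (-0.03 scaled), and 0.15 for P7 against E18.5 (-0.67 scaled), against 0.92 (0.04 scaled). The median counts each chain alike, and the most abundant chains lay on the other side of the symbols in the deposited values. For P7 against E18.5, Col3a1, Col1a2 and Col1a1 differed by 1.99, 1.49 and 1.46 (0.75, 0.25 and 0.22 scaled). For E18.5 against E16.5 they differed by -1.02, -0.86 and -0.84 (-0.04, 0.12 and 0.13 scaled). These 2 comparisons share the E18.5 library, so they are not independent.

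P28 against P7 had 6 chains higher (Col4a5, Col4a3, Col6a1, Col23a1, Col13a1 and Col18a1) and 5 lower (Col27a1, Col2a1, Col4a2, Col4a1 and Col12a1) as deposited, against 5.95% and 9.57% of symbols. After scaling, Col6a2, Col6a3 and Col14a1 joined the higher chains, making 9, and Col27a1, Col4a1 and Col12a1 were the 3 lower ones, against 7.42% and 5.21% of symbols. P7 against E16.5 had 5 chains higher (Col5a1, Col2a1, Col4a2, Col4a1 and Col15a1) and 2 lower (Col23a1 and Col25a1) as deposited, against 8.84% and 3.75% of symbols. After scaling 3 of the 5, Col4a2, Col4a1 and Col15a1, were higher and the same 2 were lower, against 6.02% and 4.72% of symbols.

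**Figure D5:**
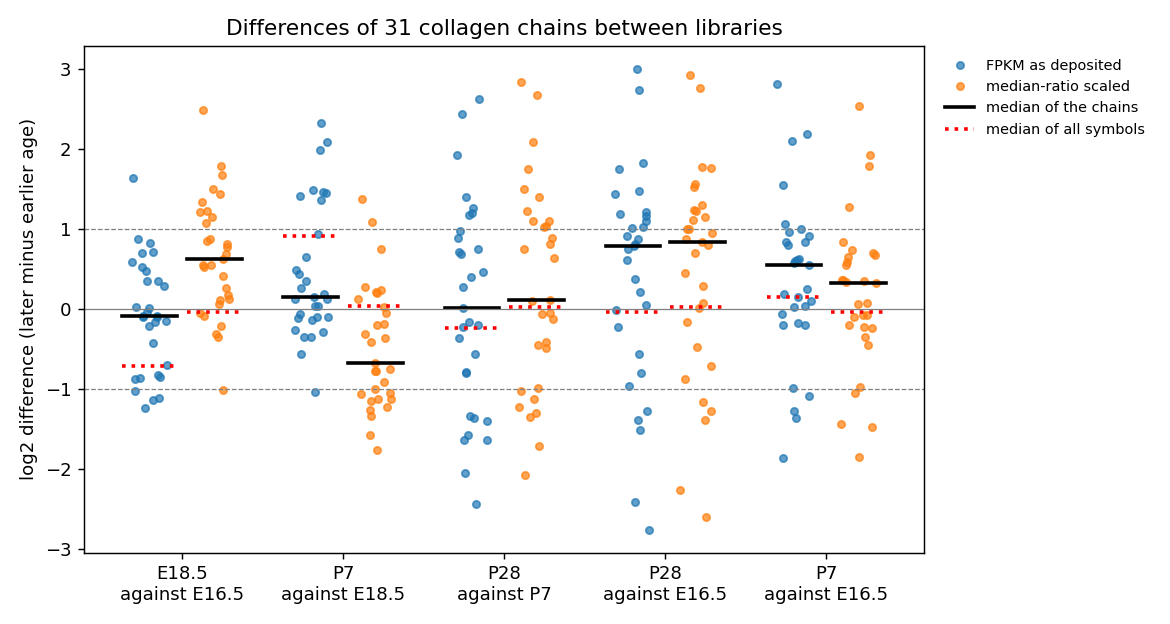
Differences of log2(FPKM + 1), later minus earlier age, for the 31 chains that reached 1 FPKM in any library, with 1 point per chain, as deposited (blue) and after median-ratio scaling (orange). Solid bars are the medians of the chains, dotted bars those of the 12561 symbols, and dashed lines mark 2-fold. For P28 against E16.5 the chains' median is 0.79 (0.84 scaled) and that of the symbols is -0.03 (0.03 scaled).

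The proteins that fold, process and bind collagen were set beside the chains, in lists taken from textbook roles. Of 21 genes for folding and modification, 3 (P4ha2, Tmem38b and Creb3l1) were counted as higher and 1 (P4ha3) as lower at P28 than at E16.5 under either scale, where 10.1% and 9.51% of symbols were (10.4% and 7.94% scaled). Colgalt2, at 0.233 FPKM at E16.5 and 3.04 FPKM at P28, stayed under the 5 FPKM needed. P4hb, the beta subunit of prolyl 4-hydroxylase, was the most abundant at 157, 64.5, 174 and 133 FPKM in order of age. P4ha3, an alpha subunit of the same enzyme, was at 47.3, 23.1, 122 and 2.37 FPKM. It was highest at P7 and lowest at P28. The other alpha subunits had their highest value at P28, with P4ha1 at 5.93, 4.45, 3.65 and 11.5 FPKM and P4ha2 at 2.75, 1.33, 3.34 and 7.80 FPKM. Leprel1, a prolyl 3-hydroxylase, was at 2.90, 1.69, 11.8 and 3.18 FPKM, and the chaperone Fkbp10 at 15.7, 6.87, 35.6 and 18.0 FPKM.

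Of 13 genes for procollagen processing and cross-linking, 4 were counted as higher and 1 as lower at P28 than at E16.5 under either scale, again beside 10.1% and 9.51% of symbols (10.4% and 7.94% scaled). Pcolce2 and Pcolce, which enhance removal of the C-propeptide, were at 2.0, 1.20, 15.3 and 280.02 FPKM and at 23.5, 10.6, 37.3 and 170 FPKM, both highest at P28. Loxl1, a lysyl oxidase of the cross-linking family, was at 2.51, 1.41, 15.9 and 36.1 FPKM. Lox itself was the 1 gene of the list counted as lower, at 93.7, 78.05, 15.7 and 34.6 FPKM, and Loxl2 was highest at P7, at 21.3, 23.1, 95.9 and 19.6 FPKM. Of 8 genes for collagen breakdown and uptake, 2 were counted as higher and 1 as lower at P28 than at E16.5 under either scale, against the same shares of symbols (10.1% and 9.51%, or 10.4% and 7.94% scaled). The gelatinase Mmp2 was at 99.6, 115, 67.4 and 141 FPKM, the endocytic collagen receptor Mrc2 at 7.92, 7.76, 11.9 and 45.0 FPKM, and the protease Ctsk at 0.976, 1.85, 4.79 and 7.56 FPKM. For E18.5 against E16.5 the log2 difference was 0.21 for Mmp2 (1.18 scaled) and -0.26 for Lox (0.71 scaled), so their order of ages depends on the scale. Mmp8, the collagenase of neutrophils, was at 18.2, 0.589, 0.152 and 0.190 FPKM, and 7 of 7 leukocyte markers reached 1 FPKM at E16.5. The part of leukocyte RNA in the Mmp8 value was not tested.

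Of 10 collagen receptor genes, 1 was counted as higher and 0 as lower at P28 than at E16.5 under either scale, which is near the share of all symbols counted as higher (10.1%, or 10.4% scaled). Itgb1, the integrin beta subunit shared by the collagen-binding integrins, was at 86.8, 84.8, 212 and 103 FPKM. Itga1 and Itga2, their alpha subunits, were at 5.23, 4.81, 23.5 and 6.83 FPKM and at 1.77, 0.963, 15.6 and 1.87 FPKM, with the peak at P7 that the endothelial markers also had. Gpr56, an adhesion receptor that binds collagen III, was at 1.68, 0.408, 0.637 and 9.47 FPKM.

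The remaining marker lists place the libraries side by side. The 9 fibroblast markers summed to 1315, 1258, 2421 and 5779 FPKM in order of age, and at least 8 of 9 reached 1 FPKM in each library. Mfap4 alone made up 680.1, 825, 1231 and 4399.8 of these sums, while Pdgfrb (7.83, 8.42, 30.8 and 5.07 FPKM) and Vim (307, 153, 802 and 326 FPKM) were highest at P7. For P28 against E16.5, 5 of the 9 (Pdgfra, Tcf21, Dcn, Mfap4 and Fn1) were counted as higher and 1 (Thy1) as lower under either scale. Of all symbols, 10.1% were higher and 9.51% lower (10.4% and 7.94% scaled). The median log2 difference of the 9 was 1.07 (1.16 scaled). Thy1 was at 0.0428 FPKM at E18.5. Smooth muscle and myofibroblast markers (6 genes) summed to 314, 139, 511 and 30.8 FPKM, lowest at P28, and none was listed at 0. The 6 pericyte markers summed to 17.9, 26.9, 32.7 and 19.2 FPKM and the 6 Schwann cell markers to 1.51, 1.19, 6.46 and 0.914 FPKM. Leukocyte markers summed to 1318, 63.7, 19.2 and 5064 FPKM, of which Lyz2, also made by alveolar epithelial cells, was 5062 at P28. Erythroid markers summed to 5.88, 487, 21.3 and 1.65 FPKM, highest in the E18.5 library. What these cells added to the collagen values was not tested.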

How the data were processed

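RNA from Pdgfra+ lung fibroblasts was sequenced at 4 ages, with 1 library per age. The authors deposited FPKM for 23931 entries. Alignment tools listed in the submitters' processing notes are TopHat and TopHat2 2.0.9, with builds GRCm38 and mm10. Which program computed FPKM is not given here by any source used. Per the labels' protocols, a Nextera XT kit was used, with paired-end sequencing. FPKM holds no read totals, so depth and counting error are unknown.

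Entries sharing a symbol were summed (258 symbols, no collagen chain among them). Differences are of log2(FPKM + 1), later minus earlier age. A gene counted as higher or lower where the difference was at least 1 and 5 FPKM was reached in the higher library. Median-ratio factors came from 7930 symbols at 1 FPKM or more in every library. No p-value is given, as no age has a second library. The 5 comparisons are those between successive ages and of P28 and P7 against E16.5.

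Chains at 10 FPKM or more in a library were given at all 4 ages. Others were given by range, with up to 3 named per type for the span between ages, and further chains were named after their values were seen (Col2a1, Col11a1, Col24a1 and the low chains). From the lists of related genes the most abundant member and up to 3 with the largest difference were named, plus Pdgfra, and from marker lists those with the highest FPKM, with Acan, Matn1, Hapln1, Cytl1, Krt5, Pdgfrb, Thy1, Tcf21, Dcn, Fn1 and further members of the related lists (P4ha1, P4ha2, Tmem38b, Creb3l1, Colgalt2, Lox and Loxl2) added after their values were seen. The members, lists and tests were chosen with earlier results of these data known. Structural types follow textbook classification. Gene coordinates and transcript lengths are from GENCODE M21 on GRCm38, found for all 44 chains, and upstream windows are from RefSeq on GRCm38.p6. The counting code was run on simulated data made from the E16.5 values with small noise. In these, 4-fold changes were placed in genes at 20 FPKM or more. That run checks the code only and says nothing of the spread between libraries or of chains with low levels. Each setting was also varied: pseudocount (0.1 or 5), FPKM minimum (20 or none), fold threshold (4) and scaling (median-ratio or upper-quartile). Python 3.11.15, numpy 2.4.6, pandas 2.3.3 and matplotlib 3.10.9 were used.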

Additional observations from a re-analysis of the deposited data

How the results depend on the processing

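No paired analysis was possible because each age has 1 library. Of the 70 alternative counts of chains 37 moved by over 1.5 times, and of the 30 alternative medians 4 changed sign, all under scaling. No read depth is known, which limits statements on the low chains. With median-ratio scaling, the chains higher and lower were 8 and 0 for E18.5 against E16.5, 1 and 7 for P7 against E18.5, with 9 and 3 for P28 against P7, then 11 and 1 for P28 against E16.5, and 3 and 2 for P7 against E16.5. With upper-quartile scaling they were 8 and 0 for E18.5 against E16.5, 0 and 8 for P7 against E18.5, 9 and 1 for P28 against E16.5 (Col1a1 no longer counted), and 3 and 2 for P7 against E16.5. The median difference of the chains turned from -0.08 to 0.63 and 0.65 under these scalings for E18.5 against E16.5, and from 0.15 to -0.67 and -0.77 for P7 against E18.5. By construction both scalings raise the E18.5 values. Of the single chains at 10 FPKM or more, 248 of 300 alternative differences kept their side of the threshold. A difference could keep its side and still change sign. For E18.5 against E16.5, Col1a1 and Col5a1 were at -0.84 and -0.42 as deposited and at 0.13 and 0.53 with median-ratio scaling. Some that crossed the threshold also changed sign, such as Col6a2 and Col14a1 for P7 against E18.5. These were at 0.19 and 0.12 as deposited and at -1.04 and -1.06 with median-ratio scaling.

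A pseudocount of 5 gave 0 higher and 1 lower chain for E18.5 against E16.5, 3 lower for P28 against P7, then 6 higher for P28 against E16.5, and 2 higher and 0 lower for P7 against E16.5. A minimum of 20 FPKM gave 0 higher and 1 lower for E18.5 against E16.5, 3 and 2 for P28 against P7, then 6 and 0 for P28 against E16.5, and 3 and 0 for P7 against E16.5. A 4-fold threshold gave 0 and 0 for E18.5 against E16.5, 2 higher for P7 against E18.5, with 2 and 1 for P28 against P7, 2 higher for P28 against E16.5, and 3 and 0 for P7 against E16.5. Without a minimum, the lower chains came to 1 for P7 against E18.5, to 8 for P28 against P7, to 5 for P28 against E16.5 and to 4 for P7 against E16.5.

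As deposited, the highest value lay at E18.5 for 5 of 44 chains and at P7 for 10, against 13 and 4 with median-ratio and 15 and 4 with upper-quartile scaling. The lowest value lay at E16.5 for 9, at E18.5 for 16 and at P7 for 7, against 14, 3 and 16 with median-ratio scaling, and 3 at E18.5 and 16 at P7 with upper-quartile scaling. Without Col1a1, Col1a2 and Col3a1, the shares of collagen FPKM in order of age were 15.9%, 11.04%, 14.5% and 9.32% for fibrillar chains, 18.2%, 27.6%, 51.3% and 24.5% for network chains, and 53.1%, 50.6%, 27.2% and 55.4% for beaded filament chains. They were 6.95%, 6.33%, 4.56% and 4.73% for FACITs, 4.61%, 2.15%, 1.013% and 4.19% for transmembrane chains, 0.835%, 2.16%, 1.28% and 1.75% for multiplexins, and 0.438%, 0.0584%, 0.0715% and 0.0815% for the others. Weighting FPKM by transcript length moved the share of the other chains at E16.5 to 0.0771%. All 26 chain ratios stayed within 1.5 times with 1 FPKM added to both chains.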
